A study of Homo sapiens and Mus musculus with 18 samples.

Results

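Mitosis needs a cyclin-dependent kinase, motors and microtubule proteins that build the spindle, a checkpoint that holds chromatids together until every kinetochore is attached, and a ubiquitin ligase that then releases them. The genes described here are 38 listed mitosis and spindle genes, chosen by name from the machinery of these steps. Of these, 37 have a row in the human count files, among 34505 gene identifiers in all, and KIF11 was not analysed here. Each gene's level was followed in 2 human pancreatic cancer lines in which K17 (keratin 17, encoded by KRT17) was removed or added. K17 is a cytoskeletal filament protein of stratified epithelia.

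L3.6 is a pancreatic adenosquamous carcinoma line, grown here either as wild type or with K17 knocked out. PANC-1 is a pancreatic ductal adenocarcinoma line that carried either an empty vector or K17 for over-expression. Each of these 4 groups had 3 libraries of total RNA, from cells in medium with 10% fetal bovine serum, and the mouse KPC libraries of the same series (18 samples in all) were not used here. The labels do not say whether a group was 1 clone or a pool, whether its replicates were separate cultures, or how many cells were in each phase of the cycle. Groups of a line may differ in such ways as well as in K17, and these cannot be told apart. All fold changes below are given as K17-high minus K17-low, which is wild type minus knockout in L3.6 and K17 minus empty vector in PANC-1.

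Entry into mitosis is driven by the kinase CDK1 with cyclins A and B, after the CDC25 phosphatases remove inhibitory phosphates from it. Aurora kinases and PLK1 then drive spindle assembly and correct faulty attachments, the BUB and MAD proteins form the checkpoint, and the anaphase-promoting complex (APC/C) with CDC20 marks cyclin B and securin for destruction. Most of these genes are transcribed late in the cycle, and the DREAM complex, FOXM1 and B-MYB act on them through short promoter elements, the cell cycle genes homology region (CHR) and CCAAT boxes bound by NF-Y. In bulk RNA a smaller share of cells near mitosis and less mRNA per cell cannot be told apart.

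Promoters of the genes that fell in L3.6 are shown because the members are known as genes with shared promoter elements. RefSeq promoters (GRCh38.p14) matched 30 of the 37 genes by symbol, and AURKA, TPX2, BIRC5, FOXM1, UBE2C, BUB3 and TTK had no match. Only the first promoter listed for a symbol was searched, so motifs at other start sites of a gene would be missed. In the 250 bases before the start site, on both strands, a CHR (TTTGAA or TTTAAA) was found in 21 of 30 (70%), against 22.1% of 27305 promoters in the table. CCAAT was found in 22 (73.3%), against 33.0%, and both were found in 18 (60%), against 7.85%. The motifs can share a base where they adjoin, and such matches count for both. For 5 of the 6 genes that fell in L3.6, a stretch of 170 bases free of annotated exons (GENCODE 29) was available and is printed 5′ to 3′ on the gene's strand, with CHR and CCAAT matches in capitals. CDK1 lies at chr10:60778161-60778330 (plus strand, up to the start site), BUB1B at chr15:40160853-40161022 (plus strand, ending 46 bases before the start) and ECT2 at chr3:172750512-172750681 (plus strand, ending 44 bases before it). AURKB lies at chr17:8210255-8210424 (minus strand, ending 29 bases before the start) and CDC25C at chr5:138338356-138338525 (minus strand, up to the start). The AURKB stretch lies inside the gene as annotated by GENCODE 29 (chr17:8204733-8210600), downstream of its outermost start. Motifs near that start were not searched.
CDK1: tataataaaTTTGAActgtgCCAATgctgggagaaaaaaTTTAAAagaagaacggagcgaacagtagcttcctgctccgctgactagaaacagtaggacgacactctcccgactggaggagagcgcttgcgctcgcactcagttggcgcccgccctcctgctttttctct
BUB1B: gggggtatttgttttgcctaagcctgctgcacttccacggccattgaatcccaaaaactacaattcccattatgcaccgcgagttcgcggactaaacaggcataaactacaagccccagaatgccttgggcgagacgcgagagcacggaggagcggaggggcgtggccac
ECT2: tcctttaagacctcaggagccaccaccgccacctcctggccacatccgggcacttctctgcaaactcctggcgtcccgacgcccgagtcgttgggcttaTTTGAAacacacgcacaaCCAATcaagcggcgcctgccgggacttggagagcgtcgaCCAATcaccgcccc
AURKB: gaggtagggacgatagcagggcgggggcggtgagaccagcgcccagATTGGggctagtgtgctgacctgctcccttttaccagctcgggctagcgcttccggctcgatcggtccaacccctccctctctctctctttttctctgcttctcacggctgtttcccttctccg
CDC25C: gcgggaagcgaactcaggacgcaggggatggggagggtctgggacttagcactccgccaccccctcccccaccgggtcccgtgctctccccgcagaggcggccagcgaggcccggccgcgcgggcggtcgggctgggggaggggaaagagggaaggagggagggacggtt
CDK1 showed 2 CHR matches and 1 CCAAT, ECT2 showed 1 CHR and 2 CCAAT, and AURKB showed 1 CCAAT on the opposite strand (ATTGG as printed). CDC25C had no match in the 250 bases of its first listed promoter, and its other start sites were not searched. The BUB1B window printed had none, and its 1 CHR match lay nearer the start, with its first base 23 bases before it. PRC1, the other gene that fell, had both motifs, in a window that overlaps annotated exons and is not printed. A match is a run of letters, and binding was not measured.

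KRT17 matched the labels. In L3.6 it had 202, 204 and 175 counts in the knockout libraries and 1654, 1112 and 1420 in the wild type libraries. In PANC-1 it had 2, 0 and 0 counts with empty vector and 8597, 9884 and 9228 with K17. Library totals were 9485257 to 15476629 counts in L3.6 and 59671178 to 70789559 in PANC-1, and the 37 genes together had 46826 to 86427 and 402409 to 517969 counts. A PANC-1 library, empty vector replicate 2, drew 18.8% of its counts from mitochondrial genes, against 9.88% to 10.8% in the others. PANC-1 counts are therefore given with and without it. Those of the 37 genes called without it have its own level and the fold change of all 6 libraries beside them. For other genes these are given only in part. Levels below are CPM, a gene's counts scaled to a common library size by the TMM method, within each line alone.

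In L3.6 the summed level of the 37 genes was 5578, 5751 and 5684 CPM in the knockout libraries and 5504, 5076 and 4866 CPM in wild type. All 3 wild type libraries were below all 3 knockout libraries, the nearest at 5504 against 5578 CPM. Abundant genes weigh most in such a sum. MKI67 went the other way, with means of 1057 CPM in the knockout and 1167 CPM in wild type. In PANC-1 the sum was 7356, 6019 and 7227 CPM with empty vector and 6558, 6735 and 6526 CPM with K17. There the K17 libraries lay below empty vector replicates 1 and 3 and above replicate 2.

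**Figure D1:**
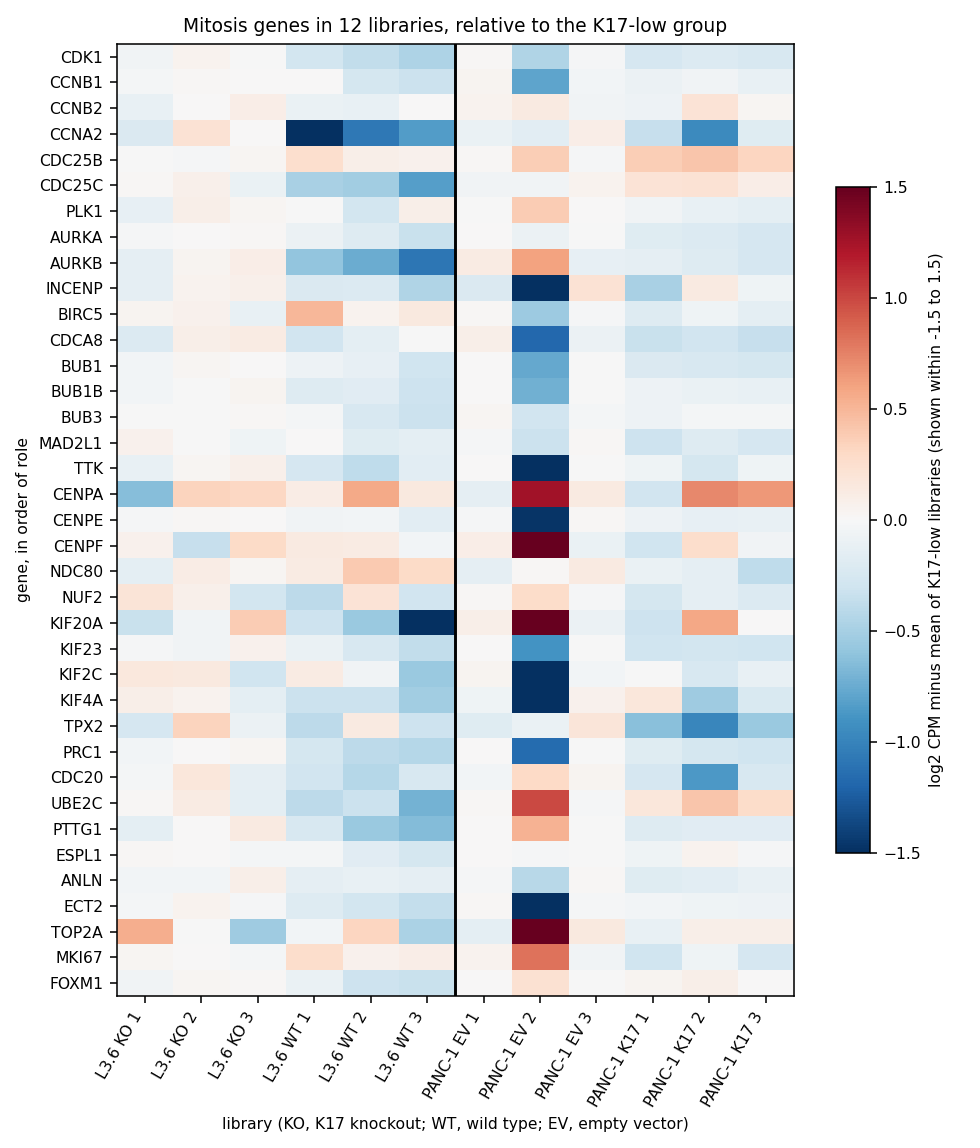
Level of each of 37 genes (rows, by role) in 12 libraries (columns), as log2(CPM + 0.1) minus the mean of the K17-low libraries of its line, which leaves out PANC-1 empty vector replicate 2; blue is lower and red higher, shown within -1.5 to 1.5. The L3.6 wild type columns are mostly blue, and the column of PANC-1 empty vector replicate 2 has the strongest colours in both directions.

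In L3.6 wild type cells 6 of the 37 genes fell relative to the knockout and 0 rose, with edgeR's quasi-likelihood test and a threshold of 0.05 on the adjusted p. Over all 13891 genes tested, 9.61% were called, 6.1% lower and 3.51% higher. The 6 were AURKB, PRC1, CDK1, ECT2, CDC25C and BUB1B. Log2 fold changes were below 0 for 31 of the 37, against 49.3% of all genes, and ran from -1.28 to 0.27. At an unadjusted p under 0.05 there were 18, against 27.7% of all genes. The median was -0.19, and that of all genes 0.01. Wild type and knockout libraries did not overlap for 20 genes that were lower in wild type (17.9% of all genes) and for 3 that were higher (15.3% of all genes), CDC25B, MKI67 and NDC80. Under upper-quartile factors all calls were 706 lower and 639 higher, against 847 and 488, and of the 37 genes 5 were lower and MKI67 was higher. Among the libraries, wild type replicate 3 was below all 5 others for 21 of the 37 genes (20.9% of all genes) and above them for 0 (22.6%), while wild type replicate 1 was below them for 4 (12.4%). The count of 6 depends on which libraries enter. It was 1 without knockout replicate 3, 2 without knockout replicate 2, 3 without knockout replicate 1 or wild type replicate 2, and 15 without wild type replicate 1. Without wild type replicate 3, CDK1, CCNA2, AURKB, PRC1 and ECT2 were called. Wild type replicate 1 differed most from its mates over all genes. Chi-square per degree of freedom was 35.0 and 43.8 for it with replicates 2 and 3, and 5.10 for replicates 2 and 3. Knockout pairs were at 5.79 to 10.8.

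**Figure D2:**
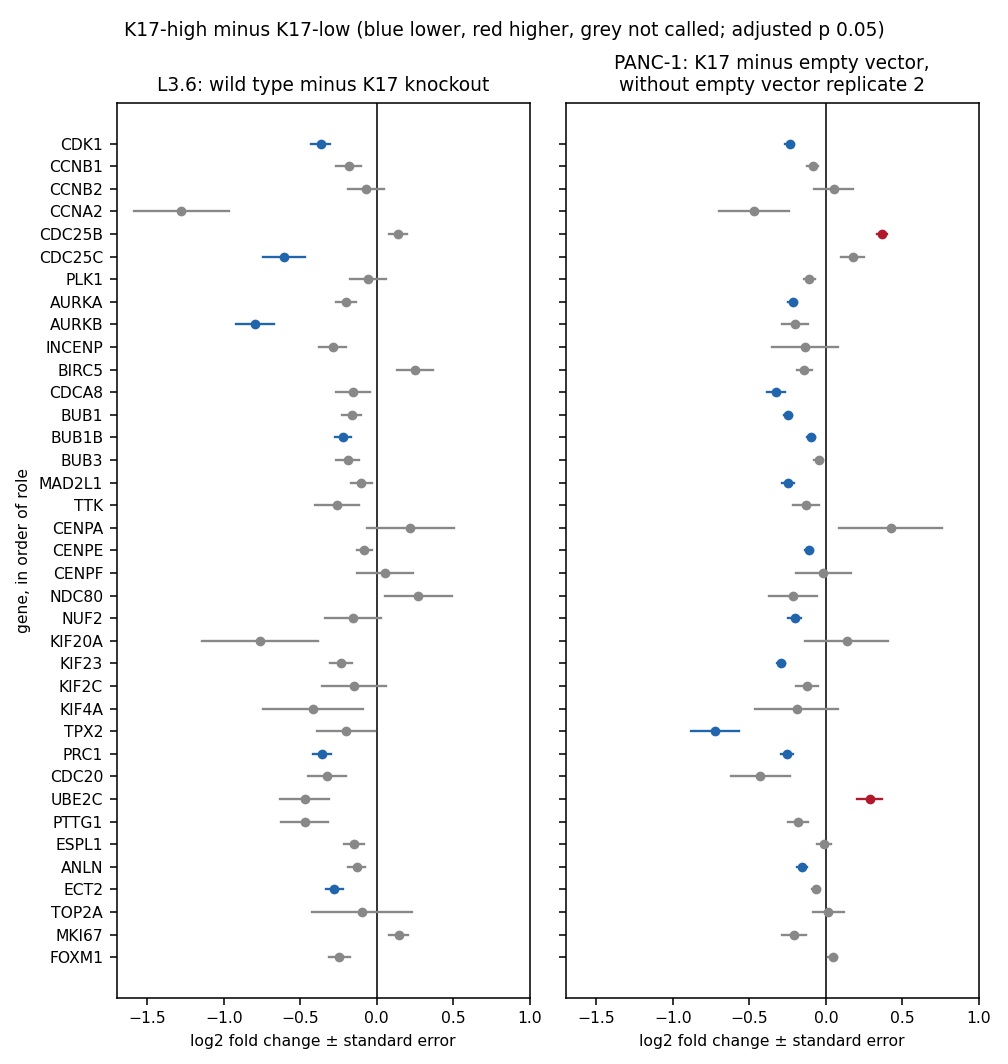
Log2 fold change with its standard error (horizontal axis) for each of 37 genes (vertical axis, by role), K17-high minus K17-low, in L3.6 (left) and in PANC-1 without empty vector replicate 2 (right). Blue points were lower, red higher and grey not called at an adjusted p of 0.05; 6 points are blue on the left, and 12 blue and 2 red on the right.

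Among the 6 entry kinase and cyclin genes, CDK1 and CDC25C fell in L3.6. CDK1, the kinase that starts mitosis (chr10:60778331-60794852, GRCh38), was at 233, 252 and 242 CPM in the knockout and 200.1, 188 and 175 CPM in wild type. The groups did not overlap, and the log2 fold change was -0.37 (SE 0.0612, adjusted p = 0.00841, edgeR). CDC25C, a phosphatase that activates CDK1, was at 20.3, 21.0 and 18.7 CPM in the knockout and 14.3, 13.9 and 11.2 CPM in wild type. Every wild type library was lower, with a log2 fold change of -0.61 (SE 0.138, adjusted p = 0.0303, edgeR). CDC25C was past the threshold in 8 of 15 other settings. CCNA2, cyclin A2, had the lowest fold change of all members and is named here after its values were seen. It was at 81.5, 110.1 and 95.8 CPM in the knockout and 21.7, 45.1 and 53.0 CPM in wild type. Its groups did not overlap, and wild type replicate 1 was the lowest library, at 0.444 of the geometric mean of its mates (0.1 CPM added to each). The value missed the threshold (log2 fold change -1.28, SE 0.311, adjusted p = 0.0516, edgeR). CCNB1, cyclin B1, was at -0.18 and CCNB2 at -0.07, and the phosphatase CDC25B was at 0.14, none of them called.

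Of the 4 genes of the chromosomal passenger complex, which corrects wrong attachments at centromeres and acts at the cleavage plane, AURKB fell. AURKB, its kinase, was at 62.8, 70.6 and 73.6 CPM in the knockout and 45.5, 41.1 and 32.3 CPM in wild type, with means of 69.0 ± 5.53 and 39.6 ± 6.73 CPM (SD, n = 3). The groups were separated by more than their SDs, with a log2 fold change of -0.80 (SE 0.126, adjusted p = 0.00683, edgeR). It was past the threshold in 14 of 15 other settings, from -0.92 to -0.67. Its scaffold INCENP was at -0.29, its partner CDCA8 (borealin) at -0.15 and BIRC5 (survivin) at 0.25, and none passed. Values of the 4 genes had both signs. AURKA, the Aurora kinase of centrosomes, was at -0.20 and PLK1, the Polo-like kinase, at -0.06, and neither passed.

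Of the 5 spindle checkpoint genes, only BUB1B passed in L3.6. BUB1B, which encodes the inhibitor BUBR1, was at 323, 331 and 339.8 CPM in the knockout and 290.2, 294 and 267 CPM in wild type. The groups did not overlap and the step was small, with a log2 fold change of -0.22 (SE 0.0532, adjusted p = 0.0366, edgeR). It was past the threshold in 6 of 15 other settings. The checkpoint kinases TTK (-0.26) and BUB1 (-0.17), the adaptor BUB3 (-0.19) and MAD2L1 (-0.10) had values below 0 and were not called. None of the 5 kinetochore and centromere genes passed, and their median was 0.06. NDC80, of the complex that binds microtubules, was at 0.27 in L3.6 with 3.40, 4.10 and 3.87 CPM in the knockout and 4.14, 4.99 and 4.65 CPM in wild type, and CENPA, the centromeric histone, was at 0.22. CENPF (0.06), the motor CENPE (-0.08) and NUF2 (-0.16) lay closer to 0 than NDC80.

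Of the 6 spindle motor and microtubule genes, PRC1 fell. PRC1, which crosslinks the microtubules of the central spindle, was at 161, 166 and 169.7 CPM in the knockout and 138, 127 and 123 CPM in wild type. Every wild type library was lower, with a log2 fold change of -0.36 (SE 0.0592, adjusted p = 0.00796, edgeR), and 13 of 15 other settings kept it past the threshold. Values were below 0 without passing for KIF20A (-0.76), KIF4A (-0.42), KIF23 (-0.23) and TPX2 (-0.20), and the depolymerase KIF2C was at -0.15. Of the 2 cytokinesis genes ECT2 fell. ECT2, the exchange factor that activates RhoA at the cleavage furrow, was at 621, 658 and 626 CPM in the knockout and 555, 524 and 494 CPM in wild type. The groups did not overlap, with a log2 fold change of -0.28 (SE 0.0558, adjusted p = 0.0193, edgeR). ECT2 was past the threshold in 9 of 15 other settings. The furrow scaffold ANLN was at -0.13.

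None of the 4 APC/C and chromatid separation genes passed in L3.6, although all 4 were below 0, with a median of -0.40. UBE2C, the ubiquitin-conjugating enzyme of the APC/C, was at 14.9, 16.0 and 13.2 CPM in the knockout and 11.2, 11.7 and 8.97 CPM in wild type. Its groups did not overlap (log2 fold change -0.47, adjusted p = 0.0991, edgeR). Securin, PTTG1, was at -0.47, the activator CDC20 at -0.32 and separase, ESPL1, at -0.15. The proliferation marker MKI67 went the other way, at 1076, 1062 and 1033 CPM in the knockout and 1264, 1105 and 1131 CPM in wild type (log2 fold change 0.14, adjusted p = 0.166, edgeR). TOP2A, the topoisomerase that untangles chromatids, was at -0.10. FOXM1, a transcription factor of the late cycle, was at 394, 415 and 414 CPM in the knockout and 379.9, 329 and 322 CPM in wild type. Its groups did not overlap and it missed the threshold (log2 fold change -0.25, adjusted p = 0.0611, edgeR).

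With all 6 PANC-1 libraries, 0 of the 37 genes were called by edgeR, where 0.644% of 16295 genes were called, 0.0614% lower and 0.583% higher. At an unadjusted p under 0.05 there was 1 (10% of all genes), TPX2, with a log2 fold change of -0.69 and an adjusted p of 0.217. DESeq2 called 1 gene, TPX2. The median of the 37 was -0.04 and that of all genes 0.01. K17 and empty vector libraries did not overlap for 9 genes that were lower with K17 (11.1% of all genes) and 1 that was higher (14.5% of all genes), CDC25C.

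Empty vector replicate 2 was at the edge of the PANC-1 libraries for most of these genes, but in no single direction. Of the 37 genes, 18 were below and 12 above all 5 other PANC-1 libraries there, against 38.3% and 38.2% of all genes. Ratios here are to the geometric mean of the other libraries of the group, with 0.1 CPM added to each value. KIF20A, a motor of the central spindle, was at 6.18, 55.1 and 5.44 CPM in the 3 empty vector libraries, so replicate 2 had a ratio of 9.36. TOP2A was at 26.9, 193 and 32.8 CPM there, a ratio of 6.48, and CENPF, a kinetochore and nuclear matrix protein, at 76.3, 216 and 66.5 CPM, a ratio of 3.03. ECT2 was at 994, 293 and 970.4 CPM, a ratio of 0.298, and the ratios of TTK, KIF4A and KIF2C were 0.254 to 0.255. Fold changes of these genes with all 6 libraries rest on that library. KIF20A was at -1.80 with it and 0.14 without it, TOP2A at -1.48 and 0.01, and ECT2 at 0.32 and -0.06. The part of this library's mitochondrial share in these values was not tested.

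**Figure D3:**
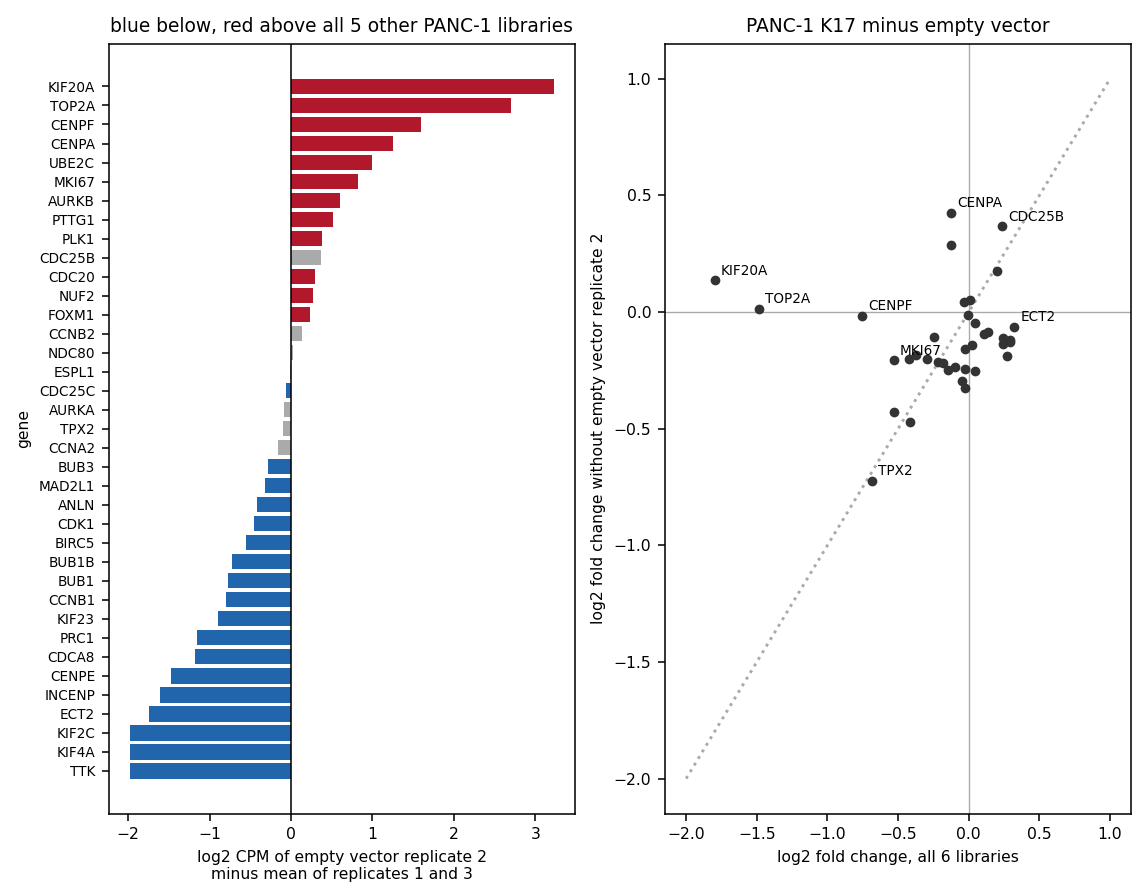
Left, log2 CPM of PANC-1 empty vector replicate 2 minus the mean of replicates 1 and 3 (horizontal axis) for 37 genes (vertical axis), blue where it was below and red where it was above all 5 other PANC-1 libraries. Right, log2 fold change of K17 minus empty vector with all 6 libraries (horizontal axis) against that without replicate 2 (vertical axis), with a dotted line of equality; KIF20A and TOP2A move from -1.80 and -1.48 to 0.14 and 0.01.

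Without empty vector replicate 2, 12 of the 37 genes fell with K17 and 2 rose, by edgeR's quasi-likelihood test. Of 16640 genes tested, 9.25% were called lower and 11.4% higher, so the split of all genes leaned the other way. Under upper-quartile factors it was 2193 lower and 1549 higher, against 1540 lower and 1902 higher, and 18 of the 37 genes were then lower and 1 higher. Log2 fold changes were below 0 for 29 of the 37, against 49% of all genes, with a median of -0.13 against 0.01 and a range from -0.72 to 0.42. K17 and empty vector libraries did not overlap for 23 genes that were lower with K17 (22.9% of all genes) and 4 that were higher (25.3% of all genes), CDC25B, CDC25C, FOXM1 and UBE2C. For 4 of these 14 genes, PRC1, BUB1B, CENPE and UBE2C, the fold change of all 6 libraries had the opposite sign (18.6% of all genes called). Empty vector was here 2 libraries. The count was 8 without replicate 3 as well, where the 1 empty vector library left is assumed to vary like the K17 libraries, and 1, CDC25B, in 1 fit of the human groups.

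Of the entry genes in PANC-1, CDK1 fell and CDC25B rose. CDK1 was at 469 and 456 CPM in empty vector replicates 1 and 3 and 387, 402 and 392 CPM with K17. The groups did not overlap, with a log2 fold change of -0.24 (SE 0.0294, adjusted p = 0.00184, edgeR). Empty vector replicate 2 was below all of them at 338 CPM, and the value of all 6 libraries was -0.10. CDC25B, a phosphatase that acts on CDK1 at the start of mitosis, was at 119 and 116 CPM in empty vector and 152, 157 and 147 CPM with K17. Every K17 library was higher, with a log2 fold change of 0.37 (SE 0.0356, adjusted p = 0.000617, edgeR), and it passed in 13 of 13 other settings. In empty vector replicate 2 it was at 152 CPM, within the range of K17, and the value of all 6 libraries was 0.24. CCNA2 was at -0.47, CCNB1 at -0.09, CCNB2 at 0.05 and CDC25C at 0.18, none of them called. AURKA fell, from 354 and 352 CPM to 311, 306 and 297 CPM (log2 fold change -0.22, SE 0.028, adjusted p = 0.00216, edgeR). Replicate 2 was at 332 CPM and the value of all 6 libraries was -0.18. In PANC-1 PLK1 was at -0.11.

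Of the passenger complex, CDCA8 fell in PANC-1. CDCA8 was at 124 and 109 CPM in empty vector and 91.9, 95.5 and 91.5 CPM with K17 (log2 fold change -0.33, SE 0.0575, adjusted p = 0.00878, edgeR). The groups did not overlap, and empty vector replicate 2 was lower than all of them at 51.1 CPM, with -0.03 over all 6 libraries. AURKB was at 30.6 and 26.0 CPM in empty vector and 25.8, 24.6 and 23.7 CPM with K17. Its groups were close and it was not called (log2 fold change -0.20, adjusted p = 0.154, edgeR). BIRC5 was at -0.14 and INCENP at -0.13 in PANC-1, and over all 6 libraries they were at 0.02 and 0.24.

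Checkpoint genes gave 3 of the 12 that fell. BUB1, the kinase that recruits the checkpoint to kinetochores, was at 637 and 634 CPM in empty vector and 547, 537 and 527 CPM with K17 (log2 fold change -0.25, SE 0.0254, adjusted p = 0.00082, edgeR). MAD2L1, which binds CDC20 to hold anaphase, was at 137 and 139.5 CPM in empty vector and 112, 121 and 117 CPM with K17 (log2 fold change -0.25, SE 0.0392, adjusted p = 0.00489, edgeR). BUB1B was at 386 and 384 CPM in empty vector and 367, 359 and 358 CPM with K17. The K17 libraries were below both, by little, with a log2 fold change of -0.10 (SE 0.0246, adjusted p = 0.0348, edgeR). Empty vector replicate 2 was below every K17 library, at 373 CPM for BUB1, 110.4 CPM for MAD2L1 and 233 CPM for BUB1B. Over all 6 libraries BUB1 was at -0.03 and MAD2L1 at -0.15, and BUB1B had the opposite sign at 0.11. In PANC-1 TTK was at -0.13 and BUB3 at -0.05.

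At the kinetochore NUF2 and CENPE fell in PANC-1. NUF2, a partner of NDC80, was at 111 and 109 CPM in empty vector and 92.0, 100.1 and 95.8 CPM with K17 (log2 fold change -0.20, SE 0.0423, adjusted p = 0.0161, edgeR). CENPE, a motor that moves chromosomes to the metaphase plate, was at 654 and 669.8 CPM in empty vector and 629, 606 and 611 CPM with K17 (log2 fold change -0.11, SE 0.026, adjusted p = 0.0267, edgeR). Both genes had groups that did not overlap, and the CENPE step was small. CENPE passed in 7 of 13 other settings without replicate 2, and NUF2 in 10 of 13. Replicate 2 was above the others for NUF2 at 133 CPM and far below the K17 libraries for CENPE at 238 CPM. Over all 6 libraries NUF2 was at -0.30, and CENPE had the opposite sign at 0.24. In PANC-1 NDC80 was at -0.21, CENPF at -0.02 and CENPA at 0.42, and CENPA varied from 10.7 to 21.6 CPM within the K17 libraries.

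Spindle genes gave 3 more. KIF23, a motor of the central spindle, was at 484 and 480.2 CPM in empty vector and 394, 398 and 391 CPM with K17, and had the lowest adjusted p of the members (log2 fold change -0.29, SE 0.0242, adjusted p = 0.000319, edgeR). Replicate 2 was below all of these at 258 CPM, and the value of all 6 libraries was -0.05. TPX2, which activates AURKA on spindle microtubules, was at 35.8, 37.8 and 46.0 CPM in all 3 empty vector libraries and 26.3, 20.5 and 27.5 CPM with K17. All 3 empty vector libraries were above all 3 K17 libraries. The log2 fold change was -0.69 over all 6 libraries, not called (adjusted p = 0.217, edgeR), and -0.72 without replicate 2 (SE 0.158, adjusted p = 0.0279, edgeR). From there TPX2 passed in 9 of 13 other settings. PRC1 was at 219 and 216 CPM in empty vector and 191, 181 and 176 CPM with K17 (log2 fold change -0.25, SE 0.0373, adjusted p = 0.00377, edgeR). Replicate 2 was below every K17 library at 97.6 CPM, and the value of all 6 libraries had the opposite sign at 0.04. In PANC-1 KIF4A was at -0.19, KIF2C at -0.12 and KIF20A at 0.14.

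ANLN, the furrow scaffold, fell from 356 and 367 CPM to 318, 323 and 334 CPM in PANC-1 (log2 fold change -0.16, SE 0.0312, adjusted p = 0.0131, edgeR). Replicate 2 was below these at 269.9 CPM, with -0.03 over all 6 libraries. ECT2 was at 994 and 970.4 CPM in empty vector and 951, 942 and 929 CPM with K17, without overlap and without a call (log2 fold change -0.06, adjusted p = 0.130, edgeR). UBE2C was the only APC/C gene to pass, and it rose. It was at 22.8 and 22.2 CPM in empty vector and 25.3, 29.9 and 27.2 CPM with K17 (log2 fold change 0.29, SE 0.0808, adjusted p = 0.0475, edgeR), but at 44.8 CPM in empty vector replicate 2, above all K17 libraries, with the opposite sign over all 6 libraries at -0.12. It passed in 4 of 13 other settings without replicate 2. CDC20 was at -0.43 in PANC-1, PTTG1 at -0.18 and ESPL1 at -0.01. MKI67 was at 931 and 866 CPM in empty vector and 730.2, 858 and 752 CPM with K17 (log2 fold change -0.21, adjusted p = 0.135, edgeR), and TOP2A was at 0.01. FOXM1 was at 182 and 180.4 CPM in empty vector and 187, 193 and 182 CPM with K17, with a log2 fold change of 0.04 that became -0.01 under upper-quartile factors.

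**Figure D4:**
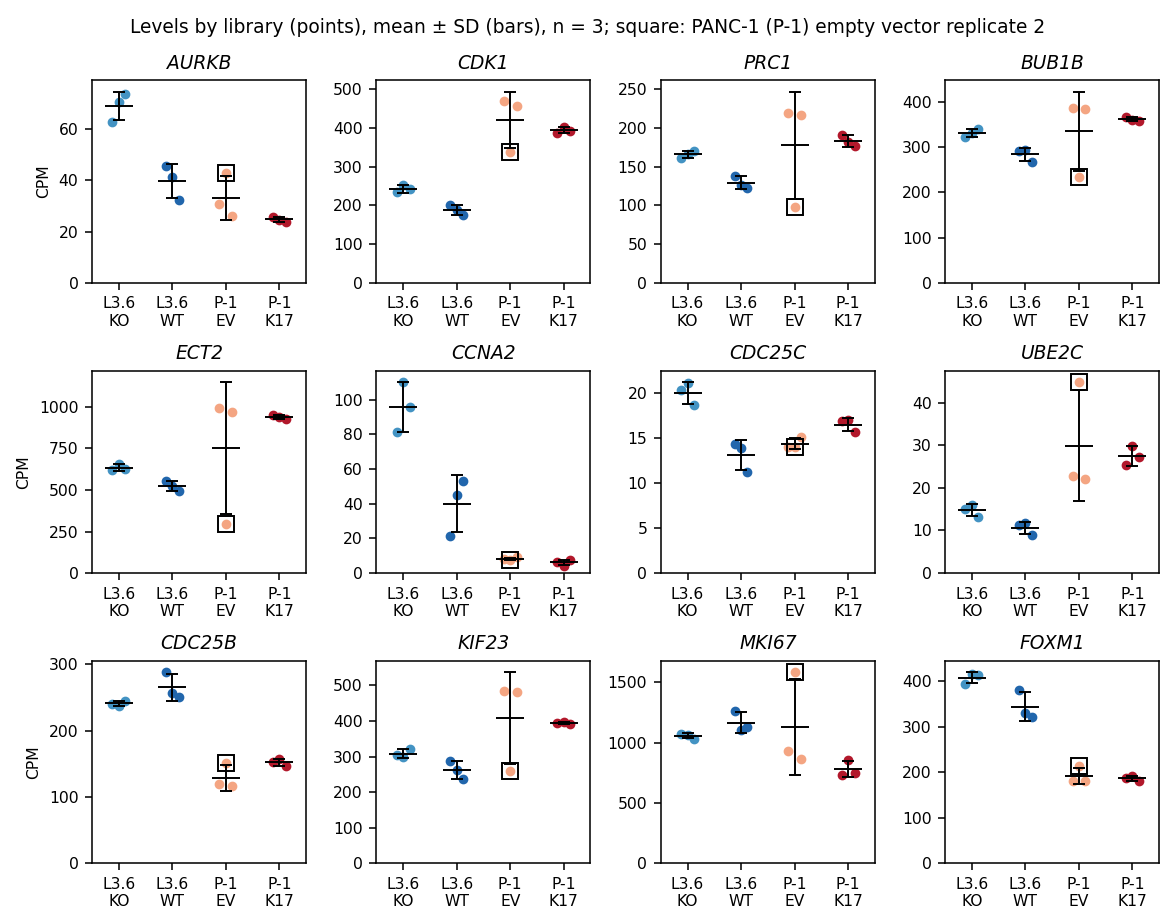
Level in CPM (vertical axes, from 0) of 12 genes in each library (points) of L3.6 knockout and wild type and PANC-1 (P-1) empty vector and K17, with mean and SD (bars, n = 3); the square marks PANC-1 empty vector replicate 2. CDK1 and PRC1 are lower in L3.6 wild type than in the knockout, and lower with K17 than in the 2 empty vector libraries outside the square.

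The 2 lines share no library, so their calls can be set side by side. Without empty vector replicate 2, PRC1, CDK1 and BUB1B fell in both, which is 3 of 37 (0.901% of the 13322 genes tested in both lines). They are 50% of the 6 that fell in L3.6 (14.7% over all genes that fell there) and 25% of the 12 that fell in PANC-1 (8.21% over all genes). With all 6 PANC-1 libraries none of the 3 was called there, and PRC1 and BUB1B had the opposite sign. Under other settings BUB1B passed in 6 of 15 in L3.6 and 7 of 13 in PANC-1 without replicate 2. PRC1 passed in 13 of 15 and 12 of 13, and CDK1 in 12 of 15 and 12 of 13. In either line 15 of the 37 genes fell (16.2% of all genes). Fold changes were below 0 in both lines for 25 genes (24.8% of all genes), above 0 in both for 2 (25.4%) and opposite for 10 (49.8%). Of the genes with a matched promoter, CHR and CCAAT were both present in 5 of 13 (38.5%) that fell in either line and in 13 of 17 (76.5%) that did not. These counts rest on the first listed promoter of each gene.

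The difference between the lines was tested as an interaction, the L3.6 effect minus the PANC-1 effect. With all 12 libraries 0 of the 37 genes were called by edgeR (1.54% of 17583 genes, 1.25% lower and 0.284% higher), with the lowest adjusted p of 0.0922 for CDC25C and 2 genes at an unadjusted p under 0.05 (14.7% of all genes). DESeq2 called 1, CDC25C. Differences were below 0 for 24 of the 37 (44% of all genes). Without empty vector replicate 2, 2 were called (11.5% of 15758 genes), both lower in L3.6 than in PANC-1 (8.72% of all genes) and 0 the other way (2.82%). Differences were then below 0 for 28 of the 37 (53.6% of all genes), and 6 were at an unadjusted p under 0.05 (26.4%). In the fits of each line alone CDC25C was at -0.61 in L3.6 and 0.18 in PANC-1, and the difference in the joint fit, which has its own scaling, was -0.85 (SE 0.184, adjusted p = 0.0120, edgeR). UBE2C was at -0.47 in L3.6 and 0.29 in PANC-1 alone, with a difference of -0.83 in the joint fit (SE 0.194, adjusted p = 0.0177, edgeR). For AURKB, which was called in L3.6 and not in PANC-1, the difference of -0.67 missed the threshold (adjusted p = 0.0595, edgeR). None of the 37 was called without PANC-1 empty vector replicate 1 as well as replicate 2, 1 without replicate 3 or K17 replicate 2 as well, and 8 without L3.6 wild type replicate 1 as well. Where 1 empty vector library is left, it is assumed to vary like the other groups. Of all genes, 1374 were called lower and 445 higher, and 1204 and 1301 under upper-quartile factors.

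Other genes of mitosis, in lists without these 37, were counted the same way. Over all genes tested, 6.1% were lower and 3.51% higher in L3.6, and 9.25% and 11.4% in PANC-1 without empty vector replicate 2, the fit used for PANC-1 in what follows. Condensin and cohesin rings, which compact and hold chromatids, had 0 of 18 genes called in L3.6 (median -0.06) and 13 of 18 lower and 0 higher in PANC-1 (median -0.24). The shugoshin SGO2 (-0.39), the cohesin regulator PDS5B (-0.38) and the condensin subunits SMC2 (-0.34) and NCAPD3 (-0.32) fell there. In L3.6 the 2 most abundant of the list were SMC4 at 0.22 and RAD21 at -0.15. With all 6 PANC-1 libraries 0 genes were called in each of the 7 lists, the condensin and cohesin median was -0.02, and PDS5B (0.10), SMC2 (0.13) and NCAPD3 (0.00) were not below 0.

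Other kinetochore and centromere proteins had 3 of 26 lower in L3.6 (median -0.15), CENPT (-0.87), CENPW (-0.54) and MIS12 (-0.39), and 2 of 26 lower in PANC-1 (median -0.03), KNL1 (-0.19) and CENPU (-0.18). Other spindle and cytokinesis proteins had 4 lower and 1 higher of 20 in L3.6 and 7 lower of 20 in PANC-1, with a median of -0.18 in each. CKAP2, a microtubule protein, fell in both, by 0.55 in L3.6 and 0.22 in PANC-1 on the log2 scale, as did the motor KIF22, by 0.31 and 0.12. With all 6 PANC-1 libraries CKAP2 was at 0.27 and KIF22 at -0.38, and neither was called. DLGAP5, a spindle protein of the kinetochore fibres, was at 41.9, 54.2 and 54.2 CPM in L3.6 knockout and 67.3, 68.4 and 80.7 CPM in wild type. In PANC-1 it was at 109 and 118 CPM in empty vector and 71.3, 79.0 and 76.7 CPM with K17. It therefore rose in L3.6 (0.53, adjusted p = 0.0299, edgeR) and fell in PANC-1 (-0.59, adjusted p = 0.000482, edgeR), without overlap among these libraries. Empty vector replicate 2 was below every K17 library at 67.7 CPM, and the value of all 6 libraries was -0.38, not called. NUSAP1 (-0.40) also fell in L3.6, and HMMR (-0.35) and TACC3 (-0.32) in PANC-1. Over all 6 PANC-1 libraries HMMR was at 0.002 and TACC3 at -0.68, and neither was called.

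APC/C subunits and inhibitors had 2 lower and 2 higher of 16 in L3.6, among them the scaffold ANAPC1 (0.74), CDC27 (0.22), the activator FZR1 (-0.43) and ANAPC7 (-0.31), and 1 lower and 1 higher of 17 in PANC-1. Genes that control CDK1 and cell cycle inhibitors had 4 of 10 lower in L3.6, the inhibitors CDKN1A (-0.78), CDKN2C (-0.30) and CDKN2A (-0.30) and the phosphatase inhibitor ENSA (-0.23). In PANC-1, ENSA rose (0.18) and CDC25A fell (-0.36) in that list of 10. Over all 6 PANC-1 libraries ENSA was at 0.01 and CDC25A at -0.24, and neither was called. MuvB, DREAM and MYB factors, which act on the promoters of such genes, had 0 of 14 called in L3.6 (median -0.10) and 5 of 14 lower in PANC-1 (median -0.14). NFYA (-0.32) and NFYB (-0.28), which bind CCAAT, RBBP4 (-0.26) and E2F5 (-0.24) were among these. With all 6 PANC-1 libraries RBBP4 was at 0.13, and the kinetochore genes KNL1 at 0.27 and CENPU at -0.02. Tubulins had 1 of 12 lower in L3.6, TUBB6 (-1.02, adjusted p = 0.000195, edgeR), at 239.9, 256 and 255 CPM in the knockout and 138, 116 and 116 CPM in wild type. In PANC-1 1 of 13 rose, TUBB3 (0.52). TUBB, a main beta-tubulin gene, was at 0 counts throughout PANC-1 and at 7 to 32 in L3.6, so the row of a gene may hold only part of its reads.

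**Figure D5:**
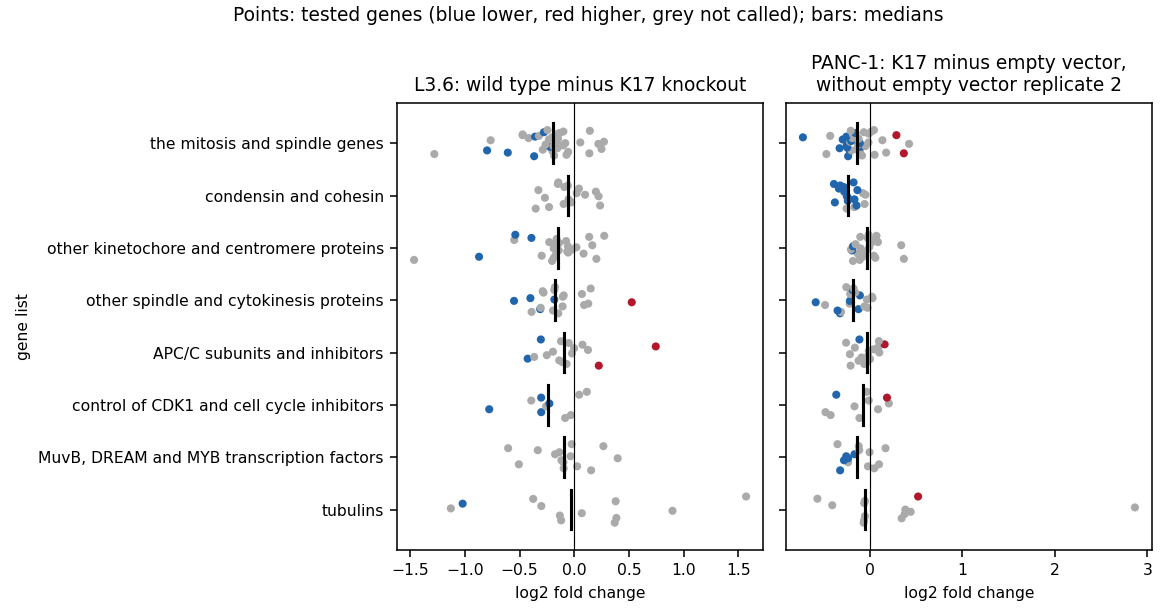
Log2 fold change, K17-high minus K17-low (horizontal axes), of each tested gene (points) in 8 lists (vertical axis), in L3.6 (left) and PANC-1 without empty vector replicate 2 (right), with medians as bars. Blue points were lower, red higher and grey not called; in the condensin and cohesin list 0 points are coloured on the left and 13 are blue on the right.

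The labelled cell type was checked against markers of epithelium and of other cell types. The 6 epithelial markers, mostly KRT19 and KRT8, summed to 3826 to 4132 CPM in L3.6 knockout and 3220 to 3613 CPM in wild type. In PANC-1 they summed to 927.5, 944.8 and 1742 CPM with empty vector, highest in replicate 2, and to 1006 to 1056 CPM with K17. None was at 0 throughout a group, but CDH1 was low, at 0.58 to 3.17 CPM in L3.6 and 0.11 to 0.92 CPM in PANC-1. In L3.6 KRT7 (-0.52) and KRT19 (-0.30) fell, and in PANC-1 without empty vector replicate 2 KRT8 rose (0.16). The 8 fibroblast markers, mostly COL1A1, summed to 169 to 187 CPM in the knockout and 190.0 to 215 CPM in wild type, and to 26.9 to 44.2 CPM with empty vector and 139 to 145 CPM with K17 in PANC-1. COL1A1 rose in both lines, by 0.41 in L3.6 and 2.66 in PANC-1 on the log2 scale, PDPN fell in L3.6 (-0.84) and COL3A1 fell in PANC-1 (-2.92). Endothelial markers, mostly PECAM1, summed to 3.95 to 4.87 CPM in the knockout and 10.3 to 14.6 CPM in L3.6 wild type, where PECAM1 rose (1.40), and to at most 2.66 CPM in PANC-1. Immune markers, mostly CD68, summed to at most 6.19 CPM in L3.6 and 51.2 CPM in PANC-1, with CD3E at 0 in all 4 groups. Acinar and islet markers, mostly SYP, summed to at most 2.93 CPM in L3.6 and 21.0 CPM in PANC-1, with INS and GCG at 0 in all 4 groups. The part of these markers in the results was not tested.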

How the data were processed

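Total RNA was extracted with TRIzol and made into Illumina TruSeq libraries, per the labels' protocols. The authors deposited 1 file per sample with whole-number counts per gene, not normalized, and these counts were used as deposited. Tools named in the submitters' processing notes are STAR 2.7.3a, kallisto 0.46.2 and bcl2fastq 1.8.4, with the builds GRCh38 and GRCm38. Their roles, the release of the annotation, strandedness and the handling of reads shared by near-identical genes were not stated (not given in the sources used here), so overlapping and antisense genes are uncertain. A row may hold part of a gene's reads, so levels were not compared between lines, and between genes only to choose which of a list to name. Gene names and coordinates came from GENCODE 29, which named 34474 of 34505 identifiers.

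Each comparison was fitted with edgeR 4.0.16 in R 4.3.3 (TMM factors, filterByExpr, robust glmQLFit, glmQLFTest), and p-values were adjusted by Benjamini-Hochberg over every gene that passed the filter, with 0.05 as threshold. CPM used TMM-scaled library sizes, and a standard error is the fold change divided by the root of F. Every member had enough counts to be tested, but in L3.6 some had few, such as KIF4A (10 to 20) and KIF20A (14 to 63). For such genes counting noise limits the precision as well as the spread between libraries. Nothing says that replicates were separate cultures, so the p-values reflect the spread of these samples alone, and it may be technical. Other settings were upper-quartile or RLE factors, a filter of 1 CPM in 3 libraries or none, limma-voom 3.58.1, DESeq2 1.42.0, a joint fit of all human groups, a replicate block, and leaving out each library. The fit of the human groups without PANC-1 empty vector replicate 2 was added after the data were seen. The scripts were tested on simulated data.

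The members, the other lists and the rule for named genes were chosen with earlier results of these data known. The rule gives per-library values to members past the threshold in any comparison and, in a role without one, to the member of largest change. From the other lists it takes up to 4 genes past the threshold, or the 2 most abundant. In PANC-1 it uses the fit without empty vector replicate 2.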

Additional observations from a re-analysis of the deposited data

Results flagged for a closer look

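These results differed between L3.6 and PANC-1 by the interaction term of edgeR, L3.6 effect minus PANC-1 effect, in the 11 libraries without PANC-1 empty vector replicate 2, with the adjusted p in parentheses. With all 12 libraries none of them was called. Among the 37 mitosis and spindle genes, CDC25C differed by -0.8539 (0.012) and UBE2C by -0.8319 (0.0177). Condensin subunit SMC4 differed by 0.3972 (0.0068). Of the kinetochore and centromere proteins, CENPT differed by -0.8616 (0.0217), CENPW by -0.5978 (0.0187), MIS12 by -0.4416 (0.0487) and CENPI by -0.3201 (0.0332). Of the spindle proteins, DLGAP5 differed by 1.03 (0.00185), NUSAP1 by -0.5042 (0.0405) and CKAP2 by -0.4117 (0.0404). The APC/C scaffold ANAPC1 differed by 0.8328 (0.00636), the inhibitor CDKN1A by -1.049 (0.017) and ENSA by -0.4867 (0.0183). NFYA differed by 0.4011 (0.0156), E2F5 by 0.5635 (0.0353) and TUBB6 by -1.038 (0.000562).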

How the results depend on the processing

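In L3.6 the count of called members was 6, and 0 in 1 fit of the 4 human groups, whose estimate of spread includes PANC-1 empty vector replicate 2, and 13 in that fit without that library. Leaving out each library gave 1 to 15, and a median log2 fold change of -0.27 to -0.14 against -0.19. With upper-quartile factors 5 were lower and MKI67 was higher, and all calls were 639 higher and 706 lower against 488 and 847. In PANC-1 the count was 0, and 1 with DESeq2. Leaving out each library gave 0 to 14 and a median of -0.135 to -0.000604 against -0.04, with 14 without empty vector replicate 2. Upper-quartile factors gave a median of -0.1238 with all libraries and -0.1875 without replicate 2, against -0.13. Without replicate 2 the count was 14, and 1 in 1 fit of the human groups, and 8 to 14 with a further library left out. The difference between lines called 0 members with all libraries, 1 with a CPM filter, 1 with DESeq2 and 0 to 2 with each library left out. Its median of -0.1142 became -0.1866 with RLE factors, -0.1865 with DESeq2, -0.227 with no filter and -0.3475 to -0.07835 with each library left out. Without replicate 2 it called 2, 4 with upper-quartile factors and 0 to 8 with a further library left out. Its median of -0.1884 became -0.04112, where the median of all genes moved from -0.05 to 0.11, and -0.1273 with no filter, and -0.1731 to -0.07465 with a further library left out. Upper-quartile factors gave 1301 higher and 1204 lower of all calls, against 445 and 1374. The causes of these changes were not tested.

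The replicate numbers were not taken as pairs in the main fits. Correlations of same-numbered libraries were -0.14, -0.05 and 0.01 in L3.6 and 0.09, 0.15 and 0.04 in PANC-1. Those of differently numbered libraries were -0.10 to 0.14 in L3.6 and -0.14 to 0.10 in PANC-1. With 3 libraries per group these values cannot settle whether libraries were paired. With the replicate block 4 members were called in L3.6, 0 in PANC-1, 12 without empty vector replicate 2, 0 for the difference and 1 for the difference without that replicate, CCNA2, where CDC25C and UBE2C were lost. Of the 14 genes called in PANC-1 without replicate 2, 4 had the opposite sign with it. These values of genes not called also changed sign. TOP2A in L3.6 was 0.2121 without knockout replicate 1, 0.0823 without wild type replicate 3 and down to -0.3183 over all libraries left out. In PANC-1, leaving out each library gave -0.06475 to 0.5748 for ECT2, -1.903 to 0.01462 for TOP2A and -2.249 to 0.1356 for KIF20A, with the sign changed without empty vector replicate 2 only. From there FOXM1 was -0.007084 and TOP2A -0.03729 with upper-quartile factors. TOP2A was -0.01399 and KIF20A -0.159 with the replicate block, TOP2A was -0.1194 without empty vector replicate 1, and -0.01602 and -0.01702 without K17 replicates 2 and 3, and KIF20A was -0.1537 without K17 replicate 2 and 0.3239 without K17 replicate 1. Of the single-gene results under other settings, 598 kept side and direction, 71 lost the threshold, 26 gained it and 13 changed sign. The 598 include genes not called that stayed so, and only genes called in the main fit could lose the threshold. For PANC-1 with all 6 libraries only TPX2, KIF20A, TOP2A and ECT2 entered these counts, so the opposite signs of PRC1, BUB1B, CENPE and UBE2C there are not among the 13.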
